A study of Mus musculus with 30 samples.

Results

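The addition of TGFB1 and BMP2 to TNF was followed in mouse colonoids, organoid cultures of the colon epithelium. The libraries compared were the 6 of 30 in the series that stand in 1 deposited table: 3 from colonoids given TNF alone (100 ng/mL) and 3 from colonoids given TNF (100 ng/mL), TGFB1 (3 ng/mL) and BMP2 (10 ng/mL). Both groups hold the same 3 colonoid lines, L42, L43 and L46, so each line was compared with itself. TNF is therefore common to both groups, and the contrast is the effect of TGFB1 with BMP2, added together, in its presence. In colonoids the 2 ligands were always given together, so the effects of the 2 ligands cannot be told apart. No label gives the strain, genotype or age of the colonoids, the length of treatment or what sets the 3 lines apart; the text of the series speaks of biological replicates. The series concerns Smad4 and the chemokine Ccl20.

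TGFB1 and BMP2 are related ligands that bind receptor kinases on the cell surface. TGFB receptors phosphorylate Smad2 and Smad3, BMP receptors phosphorylate Smad1 and Smad5, and both pairs enter the nucleus with Smad4. In the colon BMP signalling is strongest toward the surface epithelium and is held low around the stem cells at the crypt base, and TGFB is known to arrest the division of epithelial cells. TNF binds Tnfrsf1a and activates NF-kB, which induces chemokines together with inhibitors of its own pathway.

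The table lists 11613 genes, and each library holds 42.2 to 61.7 M recovered reads over them. Values are in CPM (counts per 1 M reads) as deposited and are given in the order L42, L43, L46; changes are differences of log2(CPM + 1), all 3 ligands minus TNF, averaged over the lines, with the standard error (SE). On this scale the change of a gene with low values is understated, and CPM is not per gene length, so levels are compared within a gene and not between genes. All 7 epithelial markers checked (Epcam, Cdh1, Krt8, Krt18, Krt19, Vil1 and Cdx2) were listed, with a summed level of 9489 to 11699 CPM under TNF and 25342 to 30759 CPM with all 3 ligands. Of 22 leukocyte markers, 19 were not listed, among them Ptprc, Cd3e, Cd79a and Tyrobp, and the 3 listed (Laptm5, Cd14 and Cd68) summed to 62.8 to 74.0 CPM under TNF and 61.2 to 81.2 CPM with all 3; none of them passed the test described below. Without L46, Cd14 passed as higher (0.21, adjusted p = 0.0237) and Cd68 as lower (-0.73, adjusted p = 0.00334), and Cd68 also passed as lower with total reads as the scaling (-0.74, adjusted p = 0.0298). Of 18 stromal and endothelial markers, 15 were not listed, among them Col1a1, Col3a1, Dcn, Pecam1 and Cdh5, and the 3 listed summed to 9.12 to 12.7 CPM and 6.86 to 7.41 CPM.

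Line L46 stood apart in the size of its response. The median absolute change over the 11595 genes tested was 0.52 in L42, 0.56 in L43 and 0.30 in L46, and L46 showed the smallest change of the 3 lines in 75.7% of genes (L42 in 13.2% and L43 in 11.1%). Its changes went the same way: across genes they had a slope of 0.53 on the mean change of L42 and L43 (r = 0.93, a description over genes, which share their libraries). The same line showed the smaller response without TNF, in libraries that enter no other value of this paragraph: TGFB1 with BMP2 against vehicle gave median absolute changes of 0.51, 0.57 and 0.32 over 11413 genes, L46 was smallest in 74.0% of them, and the slope was 0.55. The L46 libraries carry a different sample code in the labels from those of L42 and L43, with no meaning given, so line and that code cannot be told apart. Because 1 line decides much of the spread, counts are given below with each line left out.

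With TGFB1 and BMP2 added, 7065 of the 11595 genes tested passed the threshold (60.9%), 3447 higher (29.7%) and 3618 lower (31.2%; limma with line as a block, Benjamini-Hochberg adjusted p under 0.05). All 7065 moved the same way in all 3 lines, which a test paired by line nearly requires of a gene that passes. Of them, 2368 changed by more than 1 on the log2 scale, 1035 higher and 1333 lower. The groups did not overlap in 7686 of all genes tested (66.3%) and in 6501 of those called, so groups that stand apart are common. The shares of all genes tested that passed, 29.7% higher and 31.2% lower, are the background for the list counts below. The number called was 3017 without L42, 3380 without L43 and 8955 without L46. The deposited scaling places the median gene near no change (-0.03); scaled by total recovered reads instead, the median moved to -0.27, 2212 genes were higher and 5339 lower, and 41 of the calls turned sign, none of them with a change above 0.26. Directions below are relative to the median gene. Because the colonoids were measured in bulk, fewer cells of a type and less RNA per cell cannot be told apart.

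Among the 12 largest rises, Arg1, the arginase that splits arginine into ornithine and urea (chromosome 10, 24915221 to 24927484, minus strand of mm10, protein coding), stood at 1.01, 1.91 and 0.905 CPM under TNF and at 137, 153 and 32.9 CPM with all 3 ligands. The groups were far apart and L46 was the lowest of the treated libraries; the change was 5.33 (SE 0.41, adjusted p = 0.00858 by limma). Onecut2, a homeobox transcription factor, was at 4.88, 2.35 and 2.11 and then 217, 173 and 51.9 CPM (change 5.00, SE 0.33), and Aldh1a3, which makes retinoic acid, at 36.8, 25.7 and 35.6 and then 1191, 1133 and 467 CPM (change 4.69, SE 0.35). Alox12, the 12-lipoxygenase of arachidonic acid, rose from 1.01, 1.40 and 1.83 to 48.3, 182 and 38.9 CPM, with L43 above the other lines. Has2, which makes hyaluronan, rose from 0.449, 0.233 and 1.27 to 57.2, 42.1 and 25.2 CPM, and Acsbg1, an acyl-CoA synthetase, from 9.05, 8.75 and 18.0 to 333, 404 and 265 CPM. The others of the 12 largest rises were the secreted protein gene Angptl2, the junctional adhesion molecule Jam2, the keratins Krt6a and Krt36, the ATP-gated channel P2rx2 and the steroid hydroxylase gene Cyp21a1, whose reads can be shared with a near-identical copy; their changes lay between 4.23 (Krt36) and 4.76 (Angptl2).

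Among the 12 largest falls, Agr2, a disulfide isomerase needed for mucin folding (chromosome 12, 35992907 to 36004087, plus strand), went from 359.6, 387 and 201 to 7.68, 4.21 and 10.0 CPM and fell by 5.27 (SE 0.40, adjusted p = 0.00858 by limma). Pigr, the receptor that carries IgA across the epithelium (chromosome 1, 130826684 to 130852249, plus strand), went from 1531, 2115 and 1112 to 29.8, 30.03 and 76.8 CPM and fell by 5.19 (SE 0.47, adjusted p = 0.00858). In both genes every treated library was far below every library given TNF alone. Myb, a transcription factor of dividing crypt cells, went from 82.3, 105 and 72.9 to 1.67, 1.24 and 7.82 CPM, with the treated L46 library above the other treated lines. Nox1, the NADPH oxidase of the colon epithelium, went from 325, 470.1 and 279.6 to 10.3, 10.8 and 40.0 CPM. Adh1, an alcohol dehydrogenase, was at 628, 1408 and 425 and then 26.3, 35.8 and 32.4 CPM. The water channel Aqp1, the claudin Cldn15, Ifitm3, which restricts virus entry, Hao2, a hydroxyacid oxidase, and the complement component C3 were also among the 12 largest, together with Ang4 and Lgr5, which are described below; these 12 fell by between 3.79 (Lgr5) and 5.27 (Agr2). In all 24 of these genes L46 changed least, as the plot by line shows.

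**Figure D1:**
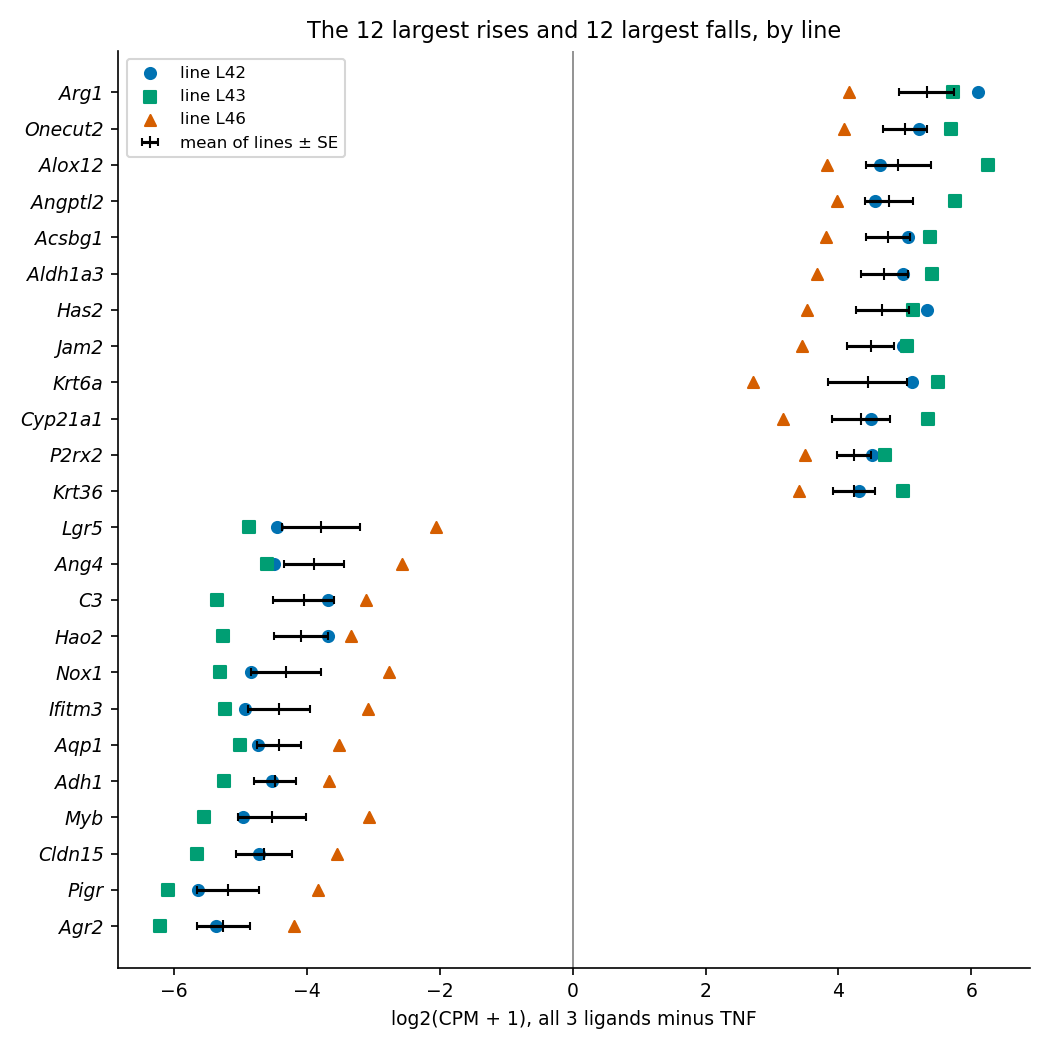
Change in log2(CPM + 1), all 3 ligands minus TNF, for the 12 genes with the largest rises and the 12 with the largest falls (mean CPM of at least 5, called, same sign in the 3 lines). Coloured points are the lines, black bars the mean of the 3 lines ± SE; the triangle of L46 lies nearest to 0 in every gene.

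Receptor and SMAD genes of the pathway changed in part. Of 16 tested members, 7 rose and 1 fell (median change 0.30, against -0.03 over all genes tested; with total reads as the scaling 6 and 5, with the median still above 0). As shares, 43.75% rose and 6.25% fell, against 29.7% and 31.2% of all genes tested. The BMP type I receptor gene Acvr1 went from 29.8, 24.2 and 33.4 to 174, 159.8 and 102 CPM (change 2.25, SE 0.24, adjusted p = 0.00858). Bmpr2, a BMP type II receptor, rose by 1.46, the TGFB receptors Tgfbr2 and Tgfbr1 by 0.80 and 0.64, and the signal transducers Smad3 and Smad2 by 1.46 and 0.56. Rgmb, a BMP co-receptor, fell by 1.11. The BMP-side Smad1 and Smad5 did not pass the threshold (changes of -0.14 and -0.14). Smad4 stood at 116, 126 and 127 CPM and then 161, 172 and 133 CPM; it was higher with all 3 ligands in each line but by little in L46, and did not pass the threshold (0.33, SE 0.11, adjusted p = 0.0565). It passed without L46 (0.45, adjusted p = 0.000714) and with no replicate block (adjusted p = 0.0475), and did not pass without L42 (0.26, adjusted p = 0.344), without L43 (0.27, adjusted p = 0.259) or with total reads as the scaling, where the change was 0.07 (adjusted p = 0.513). Calls were lost for Smad2 without L42 (adjusted p = 0.0817) or without L43 (adjusted p = 0.0535), and for Tgfbr1 with no replicate block (adjusted p = 0.12), without L42 (adjusted p = 0.121), without L43 (adjusted p = 0.134) or with total reads as the scaling (adjusted p = 0.101). Smad1 and Smad5 passed as lower with total reads as the scaling (adjusted p = 0.0161 and 0.0123). Counts of members higher and lower were 5 and 1 without line L42, 5 and 1 without L43 and 9 and 1 without L46.

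TGFB target genes rose almost throughout. Of 32 tested members, 30 rose and 0 fell (median 1.64; 26 and 0 without line L42, 27 and 0 without L43 and 30 and 0 without L46); 8 of the 40 genes on the list were not tested. Pmepa1, a feedback inhibitor that binds receptor-activated Smads (chromosome 2, 173224458 to 173276533, minus strand), stood at 106, 85.0 and 145 CPM under TNF and at 928, 1028 and 682 CPM with all 3 ligands (change 2.97, SE 0.28, adjusted p = 0.00858). The inhibitory Smad7 went from 14.1, 12.2 and 20.9 to 181, 179 and 101 CPM and Skil, a repressor of Smad complexes, from 60.1, 56.4 and 70.9 to 375, 386 and 193 CPM. In these feedback genes the lowest treated library, L46, was still above every library given TNF alone. Among growth factor genes, Pdgfb, a platelet-derived growth factor subunit, rose by 3.74 (14.6, 12.3 and 14.5 to 222, 294 and 115 CPM). The cyclin-dependent kinase inhibitors Cdkn2b and Cdkn1a, through which TGFB is known to stop the cell cycle, rose by 1.75 (58.6, 45.6 and 55.1 to 218, 188 and 142 CPM) and 1.70 (169, 177 and 217 to 558, 959 and 420.3 CPM). The 2 members that did not pass were Fstl3 (0.28) and Pdgfa (0.09).

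BMP targets were fewer and more uneven between lines. Of 12 tested members, 7 rose and 1 fell (median 0.95; 4 and 1 without line L42, 5 and 1 without L43 and 9 and 1 without L46). Smad7 belongs to this list as well. Id1, a direct target of BMP signalling that blocks helix-loop-helix factors, stood at 20.2, 21.4 and 35.0 CPM and then 113, 142 and 55.8 CPM, so the L46 pair was the closest (change 1.92, SE 0.43, adjusted p = 0.02). Id3, of the same family, went from 2.85, 1.85 and 2.05 to 12.5, 11.5 and 0.926 CPM: it was higher in L42 and L43 and lower in L46, and did not pass the threshold (1.096, SE 0.60, adjusted p = 0.173). The inhibitory Smad6 rose from 1.22, 2.04 and 1.57 to 6.76, 10.4 and 2.12 CPM and the pseudoreceptor Bambi from 6.98, 8.88 and 10.1 to 19.4, 35.7 and 16.3 CPM. Fst, the activin antagonist follistatin, rose from near 0 (0.578, 0.175 and 0.226 to 12.4, 5.75 and 1.59 CPM). Atoh8, another helix-loop-helix gene, fell (4.15, 4.67 and 1.90 to 0.564, 0.773 and 0.103 CPM), and Id2 did not pass (30.7, 27.0 and 21.1 to 24.8, 37.9 and 7.70 CPM). By limma, Id3 passed without L46 (adjusted p = 8.38e-05), and the call was lost for Smad6 without L42 (adjusted p = 0.0908) or without L43 (adjusted p = 0.1).

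Genes of cell division fell together. Of the 40 tested members, 0 rose and 39 fell (median -2.57; 0 and 36 without line L42, 0 and 36 without L43 and 0 and 39 without L46), against 31.2% of all genes tested that fell. Mki67, the marker of dividing cells (chromosome 7, 135689784 to 135716361, minus strand), stood at 616, 470.4 and 752 CPM under TNF and at 30.9, 19.6 and 303 CPM with all 3 ligands (fell by 3.37, SE 0.69, adjusted p = 0.0164 by limma). The treated L42 and L43 libraries were far below their TNF level, whereas the treated L46 library stayed well above them, though still below every library given TNF alone. Mitotic genes followed the same order: the cyclins Ccna2 (229, 233 and 262 to 11.9, 7.96 and 113 CPM) and Ccnb1 (118, 118 and 133 to 7.87, 4.98 and 64.2 CPM), the topoisomerase Top2a (509.6, 455 and 598 to 31.9, 19.6 and 256 CPM) and the kinase Aurkb (74.3, 86.1 and 99.0 to 3.50, 3.31 and 37.9 CPM). Among genes of DNA replication, Mcm5, a subunit of the replicative helicase, fell by 2.93 and Pcna, the polymerase clamp, by 0.78 (313, 332 and 308 to 168, 158 and 238 CPM). The transcription factor E2f1 fell by 2.44. The phosphatase gene Cdc25a was the 1 member that did not pass (53.9, 51.7 and 46.4 and then 51.3, 48.8 and 44.2 CPM). A call was lost for Pcna without L42 (adjusted p = 0.0637) or without L43 (adjusted p = 0.0537), and Cdc25a passed as lower with total reads as the scaling (adjusted p = 0.0212). By line, the median change of the list was -3.22, -3.44 and -1.06 in L42, L43 and L46, and without TNF, in separate libraries, -3.28, -3.59 and -1.16.

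The promoters of 4 of these genes are shown because cell cycle genes that fall together are known to share CCAAT boxes, which bind the factor NF-Y, close to the start site. The letters are the bases that end just before the RefSeq start (GRCm38.p6, the build of mm10), with CCAAT, or ATTGG where it lies on the other strand, in capitals.
Ccnb2 (chr9:70421555-70421704, minus strand): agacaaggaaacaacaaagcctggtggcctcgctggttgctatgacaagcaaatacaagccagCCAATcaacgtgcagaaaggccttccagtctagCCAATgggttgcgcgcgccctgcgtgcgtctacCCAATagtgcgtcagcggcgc
Kif11 (chr19:37376232-37376381, plus strand): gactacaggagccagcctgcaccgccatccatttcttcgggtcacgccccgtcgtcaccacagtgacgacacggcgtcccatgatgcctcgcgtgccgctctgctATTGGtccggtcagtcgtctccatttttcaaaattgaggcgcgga
Top2a (chr11:99024190-99024439, minus strand): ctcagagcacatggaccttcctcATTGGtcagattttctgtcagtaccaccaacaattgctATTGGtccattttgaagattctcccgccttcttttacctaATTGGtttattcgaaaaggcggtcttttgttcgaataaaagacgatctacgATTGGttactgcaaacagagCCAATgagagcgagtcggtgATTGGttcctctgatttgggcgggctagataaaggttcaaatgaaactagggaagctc
Mki67 (chr7:135716380-135716629, minus strand): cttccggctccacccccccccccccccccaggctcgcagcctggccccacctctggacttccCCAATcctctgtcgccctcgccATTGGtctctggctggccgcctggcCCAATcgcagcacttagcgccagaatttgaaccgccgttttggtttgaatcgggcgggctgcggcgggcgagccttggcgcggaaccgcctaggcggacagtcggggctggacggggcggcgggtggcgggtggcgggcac
Ccnb2 has 3 matches, Kif11 1, Top2a 6 and Mki67 3. Promoters of 31 of the 39 members that fell were in the RefSeq table, with 33 start sites. Over the full window of 250 bases before to 50 after the start, 27 of these 33 held CCAAT on either strand (81.8%), against 37.4% of all 32851 promoters and 38.0% of those of genes tested. Over all tested members of the list it was 28 of 34 (82.4%). As 39 of the 40 tested members fell, the share describes the list and cannot be tied to the fall. The hexamer TTTGAA, a core of the cell cycle homology element, was in 14 of 33 (42.4%), against 17.9% of all promoters and 11.8% of those of genes tested. All 14 also held CCAAT, and in none did a match of one motif overlap a match of the other. The matches describe the letters only; binding was not measured.

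Of the stem cell and Wnt list, 43.5% of tested members fell and 30.4% rose, against 31.2% and 29.7% of all genes tested, so the share that rose is at that of genes at large. Of 23 tested members, 7 rose and 10 fell (median -0.14; 5 and 8 without line L42, 5 and 8 without L43 and 8 and 11 without L46). Lgr5, the R-spondin receptor that marks crypt stem cells (chromosome 10, 115450311 to 115587780, minus strand), stood at 165, 113 and 133 CPM and then 6.62, 2.90 and 31.2 CPM (fell by 3.79, SE 0.59, adjusted p = 0.0105). The treated L46 library was the highest of its group and still below all TNF libraries. Ascl2, the transcription factor that maintains these cells, went from 50.0, 55.8 and 59.6 to 4.27, 4.23 and 15.6 CPM, Smoc2 from 113, 130.5 and 68.4 to 22.8, 31.9 and 6.07 CPM, and Lrig1, a negative regulator of EGF receptors in crypt progenitors, from 296, 349.9 and 302 to 34.5, 28.03 and 82.4 CPM. The Wnt feedback gene Axin2 was at 149, 131 and 143 and then 122, 120.3 and 134 CPM and the Wnt target Myc at 222, 202 and 243 and then 189, 192 and 265 CPM; neither passed the threshold (changes of -0.17 and -0.06), but Axin2 passed as lower without L46 (adjusted p = 0.0296) and with total reads as the scaling (adjusted p = 0.0157). Cd44, the hyaluronan receptor, rose from 258, 157 and 246 to 1154, 897 and 666 CPM, and Sox9, a crypt transcription factor, from 78.5, 68.1 and 82.4 to 194, 151 and 133 CPM (changes of 2.03 and 1.04).

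Goblet cell genes were lower, from the fate regulators to the secreted products. Of 18 tested members, 2 rose and 16 fell (median -2.30; 1 and 14 without line L42, 2 and 13 without L43 and 2 and 17 without L46). Atoh1, the switch to the secretory lineage, went from 21.1, 17.2 and 10.4 to 0.634, 0.279 and 0.618 CPM and Spdef, which drives goblet maturation, from 21.9, 28.8 and 15.4 to 1.67, 2.64 and 2.88 CPM. Muc2, the gel-forming mucin, stood at 256, 188 and 163 CPM and then 36.2, 20.8 and 42.6 CPM (fell by 2.61, SE 0.25, adjusted p = 0.00858), and the trefoil factor Tff3 at 132, 193 and 90.4 and then 14.9, 14.9 and 18.0 CPM. No treated library reached the lowest TNF library in any of these 4 genes, and the groups did not overlap in 66.3% of all genes tested. Ern2, a stress sensor of mucin-making cells, and the sialyltransferase gene St6galnac1 fell by 3.24 and 2.29. The members that rose were Sytl2 (0.95), which acts in vesicle docking, and Galnt12 (0.70), which starts O-glycosylation; the call was lost for Galnt12 without L42 (adjusted p = 0.0511).

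**Figure D2:**
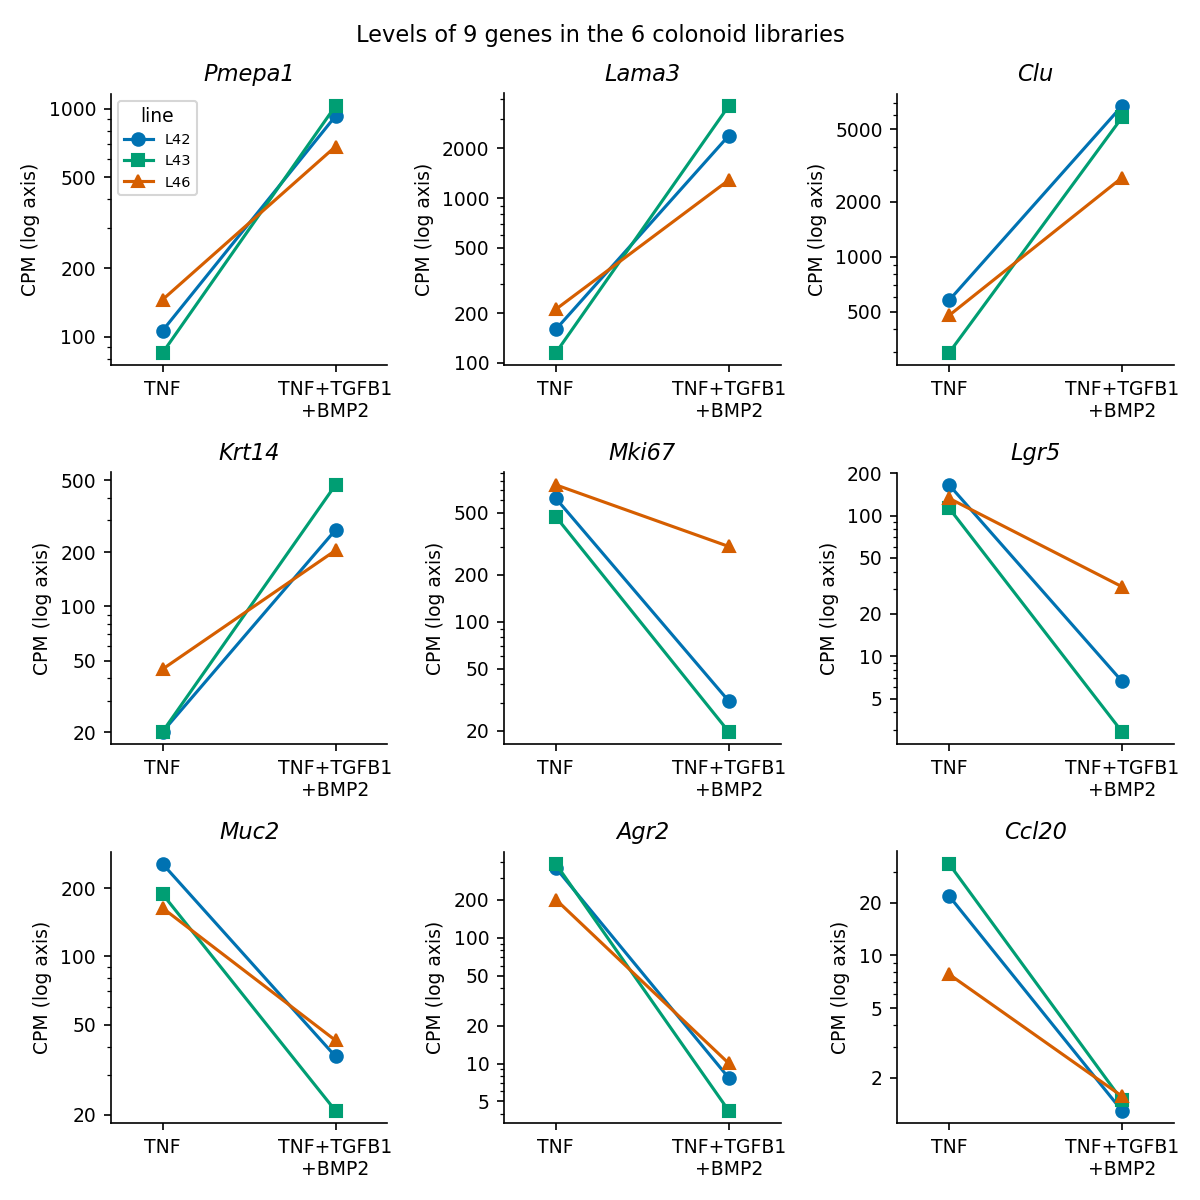
CPM (log axis) of 9 genes in colonoids given TNF or all 3 ligands; each line joins the 2 libraries of 1 colonoid line. Pmepa1, Lama3, Clu and Krt14 are higher and Mki67, Lgr5, Muc2, Agr2 and Ccl20 lower with all 3 ligands in each line, and Mki67 and Lgr5 stay highest in L46.

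Genes of the absorptive list were called in both directions. Of 28 tested members, 13 rose and 10 fell (median 0.03; 8 and 8 without line L42, 7 and 9 without L43 and 13 and 12 without L46), and with total reads as the scaling 10 and 13, which turns the balance and the sign of the median (-0.23). The shares (46.4% rose, 35.7% fell) stand beside 29.7% and 31.2% of all genes tested. Krt20, a keratin of surface cells, went from 89.4, 146 and 61.0 to 783, 1137 and 229 CPM (change 2.65, SE 0.27, adjusted p = 0.00858), Dhrs9, a retinol dehydrogenase, from 8.26, 7.87 and 10.3 to 145, 136 and 87.9 CPM, and Mal, a protein of apical transport, from 34.0, 28.7 and 36.9 to 159, 315 and 116 CPM. Mxd1, which opposes Myc, rose by 2.19. Among members that fell, the chloride-bicarbonate exchanger Slc26a3 went from 68.5, 128 and 31.0 to 4.91, 14.0 and 3.11 CPM (fell by 3.21, SE 0.15), the water channel Aqp4 from 329, 415 and 448 to 17.2, 25.6 and 94.6 CPM, and the guanylin precursor Guca2a from 135, 177 and 60.3 to 40.7, 44.0 and 10.3 CPM. The carbonic anhydrase Car1 was at 1385, 1392 and 1065 CPM under TNF and at 676, 718 and 524 CPM with all 3 ligands, and the groups did not overlap.

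Enteroendocrine genes were called no more often than genes at large (28.6% rose and 21.4% fell, against 29.7% and 31.2% of all genes tested). Of 14 tested members, 4 rose and 3 fell (1 and 1 without line L42, 1 and 1 without L43 and 6 and 3 without L46; 3 and 4 with total reads as the scaling, and the median turns from 0.12 to -0.10). Neurog3, the factor that starts this lineage, fell from 4.67, 6.82 and 2.26 to 0.164, 0.0644 and 0.309 CPM (by 2.159, adjusted p = 0.0101). Cpe, a processing enzyme of peptide hormones, rose from 27.5, 22.6 and 12.6 to 102, 113 and 37.6 CPM. The granins Chga and Chgb did not pass (changes of 0.18 and -0.03), but Chga passed as higher without L46 (adjusted p = 0.0362). Among the hormones, Pyy rose (22.5, 46.7 and 23.7 to 72.1, 136 and 29.2 CPM), a call lost without L42 (adjusted p = 0.0707) or L43 (adjusted p = 0.0781) and with no replicate block (adjusted p = 0.118), and Gcg fell (18.6, 33.2 and 13.1 to 7.84, 16.2 and 11.7 CPM), a call lost for Gcg with no replicate block (adjusted p = 0.121), without L42 (adjusted p = 0.171) or without L43 (adjusted p = 0.139). Sct, which codes for secretin, was at 1.31, 0.739 and 0.618 and then 5.17, 5.15 and 0.844 CPM; its call (adjusted p = 0.0452) was lost without L42 (0.112) or L43 (0.137), with no replicate block (0.0828) and with total reads as the scaling (0.0543). Of 15 tuft cell genes only 3 were tested (2 rose and 0 fell; 1 and 0 without L42 or L43, 2 and 0 without L46); Avil, an actin-bundling protein, rose from 1.22, 1.17 and 4.45 to 4.44, 4.87 and 10.2 CPM and Plcg2, a phospholipase, from 7.43, 7.13 and 12.4 to 14.9, 14.6 and 18.4 CPM, the latter lost without L42 (adjusted p = 0.0704) or L43 (adjusted p = 0.0521).

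Genes of regenerating and fetal-like epithelium were higher. Of 27 tested members, 20 rose and 3 fell (median 1.16; 18 and 3 without line L42, 18 and 2 without L43 and 20 and 5 without L46). Clu, the secreted chaperone clusterin that marks revival stem cells (chromosome 14, 65968483 to 65981547, plus strand), stood at 576, 297 and 476 CPM and then 6742, 5824 and 2720.3 CPM (change 3.45, SE 0.36, adjusted p = 0.00858). Anxa8, an annexin, went from 129, 136 and 193 to 1355, 1792 and 954 CPM and F3, the tissue factor of coagulation, from 407, 388 and 565 to 2932, 3499 and 2245 CPM. Anxa1, S100a6 and Anxa2 rose by 1.82, 1.89 and 2.01. Ly6a, often used as the mark of the regenerative state, was at 941, 692 and 1029 and then 731, 635 and 1474 CPM: it was lower in L42 and L43 and higher in L46, and did not pass (0.01, adjusted p = 0.967). Without L46 it passed as lower (-0.24, adjusted p = 0.0415). The related Ly6c1, whose reads can be shared with other Ly6 genes, fell (107, 78.7 and 184 to 17.3, 15.8 and 144 CPM), as did Hopx (131, 135 and 162 to 28.8, 29.7 and 107 CPM) and the division gene Birc5. The call was lost for Ly6c1 with no replicate block (adjusted p = 0.118), without L42 (adjusted p = 0.0592) or without L43 (adjusted p = 0.0753).

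Genes of the mesenchymal transition and matrix list mostly rose. Of 24 tested members, 21 rose and 2 fell (median 1.58; 19 and 1 without line L42, 19 and 1 without L43 and 22 and 2 without L46). Laminin chain genes, whose products anchor epithelia to the basement membrane, were among those that rose: Lama3 went from 159, 115 and 211 to 2391, 3624 and 1284 CPM and Lamb3 from 258, 256 and 363 to 1477, 1822 and 1066 CPM. Fn1, fibronectin, went from 81.3, 27.3 and 25.1 to 1418, 662 and 171 CPM (change 3.79, SE 0.37, adjusted p = 0.00858). The integrin subunits Itgav and Itgb6, which together activate latent TGFB, rose by 2.61 and 2.18. Hmga2, a chromatin factor of fetal tissue, fell by 1.502, and Mmp7, a matrix protease, was at 220.1, 67.3 and 86.3 and then 40.5, 10.3 and 78.2 CPM (adjusted p = 0.0461, lost without L42 (0.095) or L43 (0.109), by edgeR (0.0601) and with no replicate block (0.0923)). Of the 45 genes on this list, 21 were not tested. Among the stromal markers, the growth factor receptor Pdgfra rose from 0.150, 0.0778 and 0.121 to 4.77, 5.22 and 1.75 CPM and Pdgfrb fell from 4.32, 5.97 and 5.31 to 0.446, 0.300 and 1.11 CPM. Vwf, of endothelium, was at 4.64, 6.65 and 6.15 and then 1.64, 1.502 and 4.55 CPM (adjusted p = 0.0295, lost without L42 (0.0801) or L43 (0.0934)).

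Junction and keratin genes of epithelium were mostly higher. Of 34 tested members, 27 rose and 5 fell (median 0.90; 12 and 3 without line L42, 17 and 3 without L43 and 27 and 5 without L46). Cdh1, E-cadherin, stood at 1279, 1198 and 1202 CPM and then 3857, 3776 and 2181 CPM (change 1.37, SE 0.21, adjusted p = 0.0105), and Epcam at 1398, 1435 and 1394 and then 4191, 4247 and 2689 CPM. In both genes the groups did not overlap and L46 rose least; the call was lost for Cdh1 without L42 (adjusted p = 0.0621), and for Epcam without L42 (adjusted p = 0.0687). Among the claudins, which set the permeability of tight junctions, Cldn4 went from 636, 584 and 829 to 4064, 4456 and 2806 CPM, while the pore-forming Cldn2 went from 109, 132 and 56.1 to 10.8, 3.16 and 5.83 CPM and Cldn15 from 158, 180.2 and 153 to 4.98, 2.58 and 12.2 CPM. Keratins of stratified epithelium started from low levels: Krt14 went from 20.1, 20.2 and 44.8 to 265, 472 and 204 CPM, Krt16 from 1.20, 1.05 and 1.57 to 27.9, 56.8 and 11.8 CPM and Krt13 from 0.385, 0.875 and 0.981 to 9.23, 25.5 and 10.5 CPM (changes of 3.43, 3.62 and 3.08; keratin genes are similar in sequence, so part of the reads may be shared). Krt4, also of stratified epithelium, went the other way (195, 87.6 and 202 to 23.01, 12.4 and 144 CPM), a call lost without L43 (adjusted p = 0.0662) and with no replicate block (adjusted p = 0.077), and the mucin Muc1 fell by 1.87. Of the gastric or squamous list's 8 tested members, 6 rose and 2 fell (5 and 2 without line L42, 5 and 1 without L43 and 6 and 2 without L46). Of the small intestinal and Paneth list's 13 tested members, 3 rose and 5 fell (1 and 3 without line L42, 1 and 4 without L43 and 4 and 5 without L46), which is 23.1% and 38.5%, against 29.7% and 31.2% of all genes tested. The intestinal identity gene Cdx2 did not pass (a change of 0.04), and Cdx1, of the same family, fell by 1.103 (157, 229 and 149 to 70.0, 74.1 and 102 CPM).

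Ligands of the EGF receptor and the receptor itself were higher. Of 11 tested members, 8 rose and 2 fell (median 0.93; 6 and 2 without line L42, 7 and 2 without L43 and 8 and 2 without L46). Egfr stood at 71.0, 56.6 and 76.5 CPM and then 601, 734 and 318 CPM (change 2.93, SE 0.33, adjusted p = 0.00858). Among its ligands, Btc rose by 1.44, Areg by 1.39, Hbegf by 0.98, Tgfa by 0.93 and Ereg by 0.73. Ereg is an example of paired values: it was at 31.2, 10.2 and 23.7 CPM and then 56.7, 17.8 and 36.0 CPM, so the groups overlap although each line was higher. The call was lost for Ereg with no replicate block (adjusted p = 0.261) or without L42 (adjusted p = 0.067). The inhibitor Errfi1 rose by 1.86, the inhibitor Lrig1 fell by 2.84 and the related Lrig3 fell by 1.12.

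Ccl20, which attracts cells bearing Ccr6 and is the chemokine of the series title (chromosome 1, 83116766 to 83119167, plus strand, protein coding), stood at 21.9, 33.4 and 7.80 CPM under TNF and at 1.29, 1.48 and 1.56 CPM with all 3 ligands. The TNF level differed between lines and was lowest in L46, whereas the 3 treated libraries were close to each other. Ccl20 fell by 2.96 (SE 0.42, adjusted p = 0.00961 by limma), within a range of -3.64 to -2.55 over the alternatives. In the separately scaled table of TNF against vehicle, it was at 3.07, 3.90 and 1.11 CPM with vehicle and at 24.0, 36.6 and 8.57 CPM with TNF. Ccl20 is not listed in the table of TGFB1 and BMP2 without TNF.

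The chemokine list was called in both directions at shares not far from those of all genes tested (38.5% each way, against 29.7% and 31.2%). Of 13 tested members, 5 rose and 5 fell (4 and 4 without line L42, 4 and 4 without L43 and 5 and 6 without L46); 12 of the 25 on the list were not tested. Ccl28, which attracts IgA-secreting cells, went from 55.7, 73.9 and 41.8 to 9.51, 8.07 and 13.6 CPM and Ccl6, which can share reads with the similar Ccl9, from 43.4, 59.8 and 21.5 to 1.27, 1.61 and 5.09 CPM (both fell, by 2.34 and 3.57). Cxcl10, an interferon-induced ligand of Cxcr3, fell by 1.17 while Cxcl11, of the same receptor, rose by 1.85, both at low levels (2.42, 2.90 and 1.78 to 0.376, 0.429 and 0.659 CPM and 2.25, 2.31 and 2.38 to 11.7, 13.7 and 8.19 CPM). Cxcl16, a membrane-bound ligand of Cxcr6, went from 163, 119.6 and 187 to 579, 538 and 435 CPM (change 1.73, SE 0.20), with the groups apart. Ccl7, which attracts monocytes, rose from 0.749, 1.09 and 0.483 to 7.37, 18.3 and 2.37 CPM. The neutrophil attractant Cxcl1 did not pass (-0.05), and Cxcl5, of the same family, rose by 0.94.

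NF-kB and TNF targets did not move as a block. Of 32 tested members, 14 rose and 6 fell (9 and 4 without line L42, 10 and 4 without L43 and 14 and 10 without L46), and with total reads as the scaling 10 and 12, which turns the balance and the sign of the median (from 0.12 to -0.12). As shares, 43.75% rose and 18.75% fell, against 29.7% and 31.2% of all genes tested. Nfkbia, the inhibitor that returns NF-kB to the cytoplasm (chromosome 12, 55489410 to 55492647, minus strand), stood at 289, 404 and 328 CPM under TNF and at 175, 234 and 206 CPM with all 3 ligands (fell by 0.73, SE 0.08, adjusted p = 0.00858). Tnfaip3, the ubiquitin-editing inhibitor A20, went the other way, from 160.2, 150.3 and 130.2 to 249.8, 287 and 255 CPM (change 0.84, SE 0.10, adjusted p = 0.00861). In neither gene did the groups overlap. Tnip1, a partner of A20 (chromosome 11, 54910785 to 54962917, minus strand), rose by 1.06, Birc3, which ubiquitinates Ripk1, by 0.70, and the costimulatory receptor Cd40 by 3.42 (1.52, 0.875 and 1.22 to 31.7, 24.0 and 14.8 CPM). The adhesion molecule Icam1 fell by 1.32, and the superoxide dismutase Sod2 by 0.64. The subunits Rela and Nfkb1 rose by 0.80 and 0.34; Relb, Rel and Tnf itself did not pass (changes of 0.03, 0.14 and -0.02). Calls were lost for Sod2 without L42 (adjusted p = 0.0629) or without L43 (adjusted p = 0.0501), and for Nfkb1 without L42 (adjusted p = 0.292), without L43 (adjusted p = 0.191) or with total reads as the scaling (adjusted p = 0.378). With total reads as the scaling, Relb (-0.22, adjusted p = 0.0474) and Tnf (adjusted p = 0.031) passed as lower.

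The promoters of Ccl20 and Nfkbia, which fell, and of Tnip1 and Csf1, which rose, are shown to set genes of opposite direction side by side. The letters end just before the RefSeq start (GRCm38.p6), with matches of the 10-base NF-kB consensus on either strand in capitals.
Ccl20 (chr1:83116516-83116765, plus strand): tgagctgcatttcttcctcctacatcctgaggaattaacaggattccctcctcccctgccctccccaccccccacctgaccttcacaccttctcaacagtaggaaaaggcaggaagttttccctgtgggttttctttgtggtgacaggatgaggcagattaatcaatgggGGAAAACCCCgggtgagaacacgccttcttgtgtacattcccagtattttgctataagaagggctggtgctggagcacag
Nfkbia (chr12:55492648-55492847, minus strand): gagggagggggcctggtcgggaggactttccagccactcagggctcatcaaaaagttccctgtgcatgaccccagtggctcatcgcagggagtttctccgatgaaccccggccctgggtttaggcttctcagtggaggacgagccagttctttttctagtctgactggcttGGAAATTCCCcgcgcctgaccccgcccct
Tnip1 (chr11:54962941-54963140, minus strand): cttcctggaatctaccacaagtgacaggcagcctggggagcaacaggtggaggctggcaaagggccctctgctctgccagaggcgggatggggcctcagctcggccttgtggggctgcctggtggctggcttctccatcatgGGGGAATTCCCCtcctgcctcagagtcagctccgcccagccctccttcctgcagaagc
Csf1 (chr3:107760470-107760669, minus strand): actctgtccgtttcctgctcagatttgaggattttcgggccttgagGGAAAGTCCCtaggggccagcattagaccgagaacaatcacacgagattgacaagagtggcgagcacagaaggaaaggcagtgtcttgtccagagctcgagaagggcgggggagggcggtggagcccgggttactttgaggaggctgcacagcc
Each window holds a match: it starts 80 bases before the start site in Ccl20, 29 in Nfkbia, 58 in Tnip1, where matches on both strands overlap, and 154 in Csf1. The consensus was found in 4.51% of all 32851 promoters (250 bases before to 50 after the start) and in 5.23% of those of genes tested. Within the NF-kB and TNF list, 25 of the 32 members tested were in the RefSeq table; it was in 9 of 14 promoters of members that rose (64.3%) and in 3 of 7 of members that fell (42.9%). So promoters with these letters belong to genes of both directions, and the counts are too small to compare the shares. Csf1, a growth factor of macrophages, rose from 12.9, 7.66 and 8.61 to 23.01, 30.3 and 19.4 CPM.

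Genes of mucosal defence were lower. Of 16 tested members, 0 rose and 12 fell (median -1.45; 0 and 10 without line L42, 0 and 10 without L43 and 0 and 12 without L46). Besides Pigr and Nox1, the antimicrobial proteins Ang4 (183, 139 and 74.6 to 7.11, 4.72 and 11.8 CPM), Pla2g2a (17.0, 20.9 and 9.84 to 0.470, 1.09 and 1.94 CPM) and Reg4 (113, 82.4 and 27.8 to 5.52, 11.4 and 6.51 CPM) fell, and reads of Ang4 can be shared with other angiogenin genes. The complement components C3 and Cfb fell by 4.05 and 1.48. Nos2, the inducible nitric oxide synthase, went from 53.2, 67.0 and 41.8 to 11.1, 39.2 and 16.0 CPM, with the treated L43 library closest to the TNF libraries. The hydrogen peroxide-making Duox2 did not pass (71.8, 69.4 and 61.7 and then 55.3, 95.3 and 60.5 CPM). Lyz1, lysozyme, went from 71.2, 23.1 and 8.63 to 12.6, 4.72 and 2.74 CPM; the treated L42 library was above the TNF library of L46, so the groups overlap although each line was lower, and the call was lost with no replicate block (adjusted p = 0.0712).

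Of the epithelial cytokine list's 12 tested members, 4 rose and 2 fell (33.3% and 16.7%, against 29.7% and 31.2% of all genes tested), so the list was not called more often than genes at large. The counts were 3 and 1 without line L42, 4 and 1 without L43 and 4 and 6 without L46, and 4 and 4 with total reads as the scaling, so without L46 more members fell than rose. Il34, a ligand of the Csf1 receptor, rose by 2.25 and the interleukin-1 antagonist Il1rn by 0.97, and the death ligand Tnfsf10 fell by 1.87. Il1a, an alarmin on the NF-kB list, rose from 1.13, 0.719 and 0.649 to 7.19, 10.6 and 4.26 CPM. Of the antigen presentation list's 18 tested members, 2 rose and 8 fell (1 and 3 without line L42, 1 and 4 without L43 and 4 and 8 without L46). As shares, 11.1% rose and 44.4% fell, against 29.7% and 31.2% of all genes tested. B2m, the light chain of class I molecules, went from 296, 289 and 236 to 153, 140.2 and 166 CPM, and Cd74, the class II chaperone, from 14.3, 28.8 and 11.7 to 1.39, 5.71 and 7.74 CPM, a call lost without L43 (adjusted p = 0.0627). The protease Ctss fell by 1.07 and the nonclassical class I gene H2-T23 rose by 0.81. The immunoproteasome subunits Psmb8 and Psmb9 were at 4.43, 8.13 and 8.87 and then 1.46, 2.92 and 6.42 CPM, and at 8.11, 10.7 and 9.96 and then 2.79, 3.71 and 8.09 CPM; both calls were lost without L42 (adjusted p = 0.0839 and 0.111) or L43 (0.0795 and 0.105), and that of Psmb8 with no replicate block (0.108).

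Interferon-stimulated genes rose more often than they fell. Of 26 tested members, 12 rose and 4 fell (median 0.29; 6 and 2 without line L42, 6 and 2 without L43 and 14 and 5 without L46). As shares, 46.2% rose and 15.4% fell, against 29.7% and 31.2% of all genes tested. With total reads as the scaling 9 rose and 5 fell, and the median was 0.07, so the imbalance was smaller. Irf9, a subunit of the factor that carries interferon signals to the nucleus, went from 13.9, 13.8 and 14.9 to 32.8, 28.9 and 20.6 CPM (change 0.88, SE 0.17, adjusted p = 0.0152). Isg20, an exonuclease, rose by 1.72 and Rtp4 by 1.57. Classical targets such as Ifit1 did not pass (0.28), Isg15 rose by 0.47 at low levels (1.93, 1.92 and 1.36 to 3.26, 2.90 and 2.20 CPM), and Bst2, which tethers virions, fell from 13.3, 12.9 and 14.4 to 3.43, 3.67 and 10.5 CPM. Calls were lost for Bst2 without L42 (adjusted p = 0.0677) or without L43 (adjusted p = 0.0668), for Irf9 without L42 (adjusted p = 0.0724) or without L43 (adjusted p = 0.0539), and for Isg15 with no replicate block (adjusted p = 0.0675), without L42 (adjusted p = 0.238), without L43 (adjusted p = 0.158) or with total reads as the scaling (adjusted p = 0.11).

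Genes of cell death went both ways, with killers and survival genes among those that rose. Of 30 tested members, 17 rose and 5 fell (10 and 1 without line L42, 11 and 1 without L43 and 17 and 7 without L46; 12 and 7 with total reads as the scaling). As shares, 56.7% rose and 16.7% fell, against 29.7% and 31.2% of all genes tested. The BH3-only killers Bmf and Bcl2l11 rose, Bmf from 12.7, 11.6 and 12.9 to 259, 202 and 48.3 CPM (change 3.36, SE 0.52, adjusted p = 0.0103) and Bcl2l11 by 1.40. The survival genes Cflar, which blocks caspase-8, and Bcl2l1 rose as well, by 1.61 and 1.11, while Bcl2 fell by 1.09. The inflammatory caspases Casp1 and Casp4 fell by 0.93 and 1.59. The TNF receptor gene Tnfrsf1a, through which the ligand common to both groups acts, rose by 0.31 (65.5, 67.3 and 70.8 to 84.7, 91.6 and 77.4 CPM). Calls were lost for Tnfrsf1a without L42 (adjusted p = 0.287), without L43 (adjusted p = 0.256) or with total reads as the scaling (adjusted p = 0.544), for Bcl2 without L42 (adjusted p = 0.0777) or without L43 (adjusted p = 0.0785), and for Casp1 without L42 (adjusted p = 0.0519) or without L43 (adjusted p = 0.0501). Of the dissociation and stress list's 18 tested members, 11 rose and 1 fell (7 and 1 without line L42, 7 and 1 without L43 and 12 and 4 without L46; 9 and 4 with total reads as the scaling). Here 61.1% rose and 5.56% fell, beside the same background. Gadd45a, a growth arrest gene, rose by 2.90, the early genes Fos and Jun by 1.98 and 1.61, and the heat shock gene Hsph1 fell by 0.90. These immediate-early genes also respond to the handling of cells, and its part in the result was not tested.

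**Figure D3:**
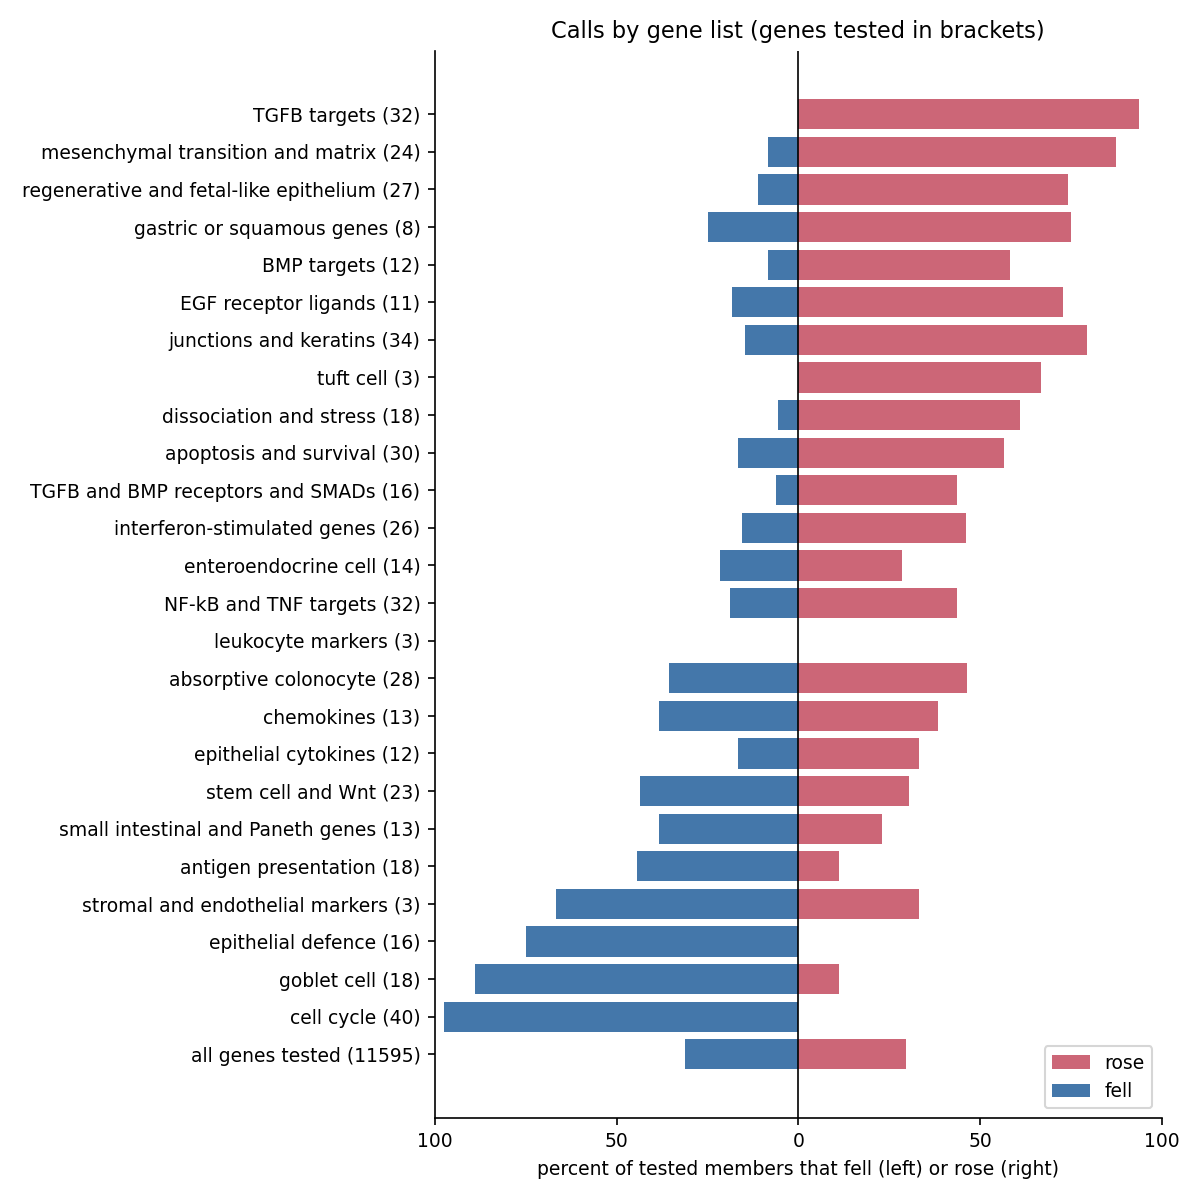
Share of tested members that fell (left) or rose (right) for 25 gene lists, ordered by median change, with all genes tested at the bottom (29.7% rose, 31.2% fell). Cell cycle (39 of 40) and goblet (16 of 18) genes fell and TGFB targets (30 of 32) rose; the balance of the NF-kB and TNF, absorptive and enteroendocrine lists turns with total reads as the scaling.

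The change with TGFB1 and BMP2 was then set beside the change without TNF, in the 6 other colonoid libraries (TGFB1 with BMP2 at the same doses against vehicle). These libraries are of the same 3 lines and none is shared between the contrasts. Only genes listed in all 3 deposited colonoid tables (this contrast, TGFB1 with BMP2 against vehicle, and TNF against vehicle) could enter. Ccl20 was therefore not tested here, and of the 13 chemokines tested above 9 entered. Of the 11413 genes that entered, 0 (0%) showed a difference between the changes with and without TNF at an adjusted p under 0.05 by limma. An unadjusted p under 0.05 was found for 315. The count was also 0 by edgeR (334 unadjusted), and 32 by DESeq2 (374 unadjusted). Across the genes the 2 changes had r = 0.98 and a slope of 0.97 (a description; the points share lines and scaling). The median half-width of the unadjusted 95% interval of the difference was 0.34, so differences well below that size were mostly not detectable. This interval lay within 1 of no difference in 10478 genes, and in 14 genes the estimate was beyond 1. After adjustment over all genes the threshold was stricter. C3, with a difference of -2.51 (95% interval -3.76 to -1.26), did not pass it, so differences much larger than 0.34 could also be missed.

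Single genes show the range. Pmepa1 changed by 2.99 with TNF and by 3.15 without it, a difference of -0.16 (95% interval -0.98 to 0.66, adjusted p = 1). Mki67 changed by -3.35 and -3.39, with a difference of 0.04 (95% interval -2.27 to 2.35, adjusted p = 1). Among TNF-induced defence genes, C3 stood furthest apart. On a scaling common to the 12 libraries it was at 2.79, 5.67 and 2.17 CPM with vehicle, 20.9, 75.7 and 19.5 with TNF, 0.416, 0.402 and 0.647 with TGFB1 and BMP2 and 0.709, 0.890 and 1.37 with all 3. Only the libraries given TNF alone held a high level, and the difference was -2.51 (95% interval -3.76 to -1.26, adjusted p = 0.715). Nos2 was at 9.91, 11.6 and 8.28 CPM with vehicle and 53.0, 66.7 and 41.8 with TNF. It was at 3.18, 8.69 and 6.88 CPM with TGFB1 and BMP2 and 11.2, 39.6 and 16.1 with all 3. With all 3 ligands each line was between its own vehicle and TNF levels, and L42 was close to vehicle. Nfkbia was at 120.0, 118 and 129 CPM with vehicle, 288, 403 and 328 with TNF, 103, 88.0 and 113 with TGFB1 and BMP2 and 176, 237 and 207 with all 3, so all 3 libraries with all 3 ligands stayed above every library without TNF. Its difference was -0.44 (95% interval -0.87 to -0.0023, adjusted p = 1). Tnfaip3 was at 53.2, 41.7 and 52.6 CPM with vehicle, 159.6, 149.8 and 130.1 with TNF, 76.8, 63.5 and 105 with TGFB1 and BMP2 and 251, 291 and 256 with all 3, highest with all 3 ligands in each line. None of these differences passed the threshold.

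**Figure D4:**
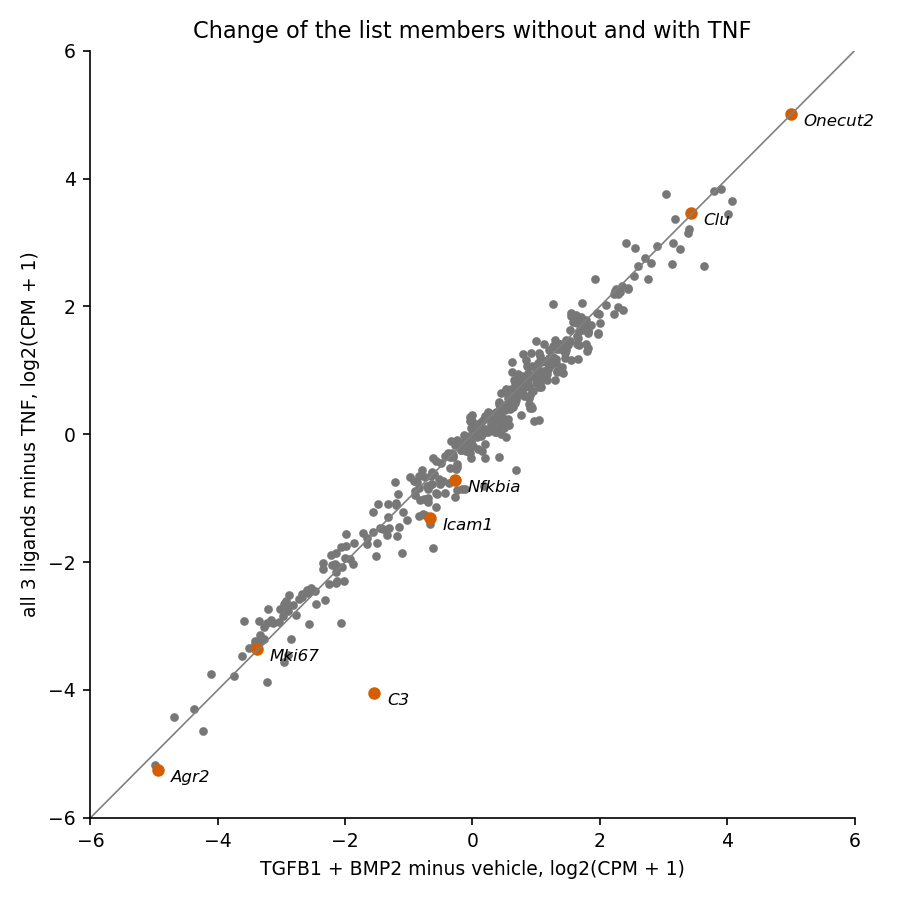
Change with TGFB1 and BMP2 without TNF (horizontal axis) and with TNF (vertical axis) for the members of the gene lists in 12 colonoid libraries, in log2(CPM + 1); the grey line marks equal changes. Most points lie along it, and C3 lies furthest below (-4.04 with TNF and -1.54 without).

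By list, L46 moved least in both settings for goblet cell genes, TGFB targets, BMP targets and interferon-stimulated genes, but not in every list. Without TNF the chemokine medians were -0.05, 0.33 and 0.57 in L42, L43 and L46. Those of the epithelial cytokine list were -0.18, 0.07 and 0.39. The median change of goblet cell genes was -2.54, -2.83 and -1.45 with TNF and -2.63, -2.33 and -1.41 without it in L42, L43 and L46, and that of TGFB targets was 1.76, 1.92 and 1.04 and 1.73, 1.93 and 1.17. BMP targets showed a wider gap, with 1.09, 1.34 and 0.41 and 1.01, 1.35 and 0.22. The medians without TNF cover fewer members of some lists. They rest on 31 of the 32 TGFB targets, 10 of the 12 BMP targets and 24 of the 26 interferon-stimulated genes. The list of interferon-stimulated genes had medians of 0.40, 0.44 and 0.31 with TNF and 0.82, 1.28 and 0.39 without it, so the lines were closer together with TNF.

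**Figure D5:**
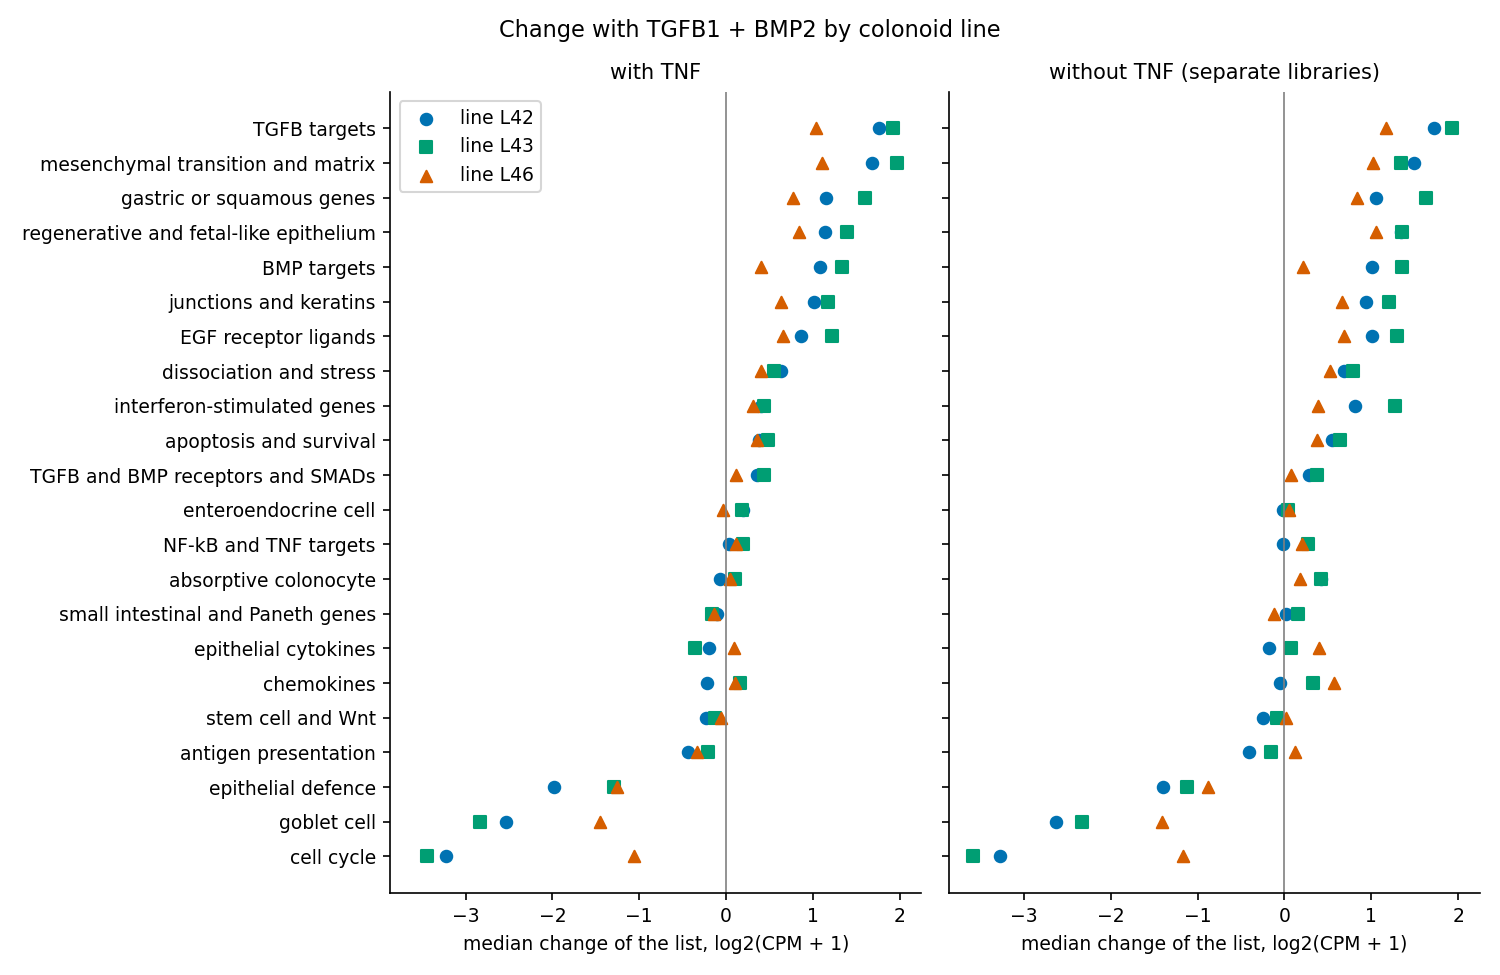
Median change with TGFB1 and BMP2, in log2(CPM + 1), by colonoid line, for gene lists with at least 8 members tested in the presence of TNF. Left, with TNF. Right, without TNF (separate libraries, with fewer members in some lists). The orange triangles (L46) lie nearest to 0 for the cell cycle, goblet and TGFB target lists in both panels.

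The same ligands had been added to TNF in cultured colonocytes of the series (labelled Flx, 3 libraries a group; the labels give neither doses nor times). Colonoids and colonocytes were separate experiments, so culture system and experiment cannot be told apart. Of 10315 genes listed in both tables, 6550 (63.5%) had a change that differed between the systems, 3249 more positive and 3301 more negative in colonoids. In this joint fit far more genes were called in colonoids (7762) than in colonocytes (1526), and the 2 changes had r = 0.28 across genes (a description). Called in each system on its own were 1170 genes, of which 523 rose in both, 244 fell in both and 403 went opposite ways. Ccl20 fell in both. It went from 23.2 ± 14.2 to 1.58 ± 0.162 CPM in colonoids (mean ± SD, n = 3) and from 55.9 ± 7.75 to 10.5 ± 0.786 CPM in colonocytes, on a common scaling, and the difference of -0.71 (95% interval -1.66 to 0.24) did not pass the threshold (adjusted p = 0.169 by limma). It passed by edgeR (-1.24, adjusted p = 0.0338) and without L46 (-1.31, adjusted p = 3.07e-05).

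Genes with a larger rise in colonoids included Fn1, Angptl2 and Dhrs9. Fn1 went from 49.0 ± 34.8 to 819 ± 682 CPM in colonoids and was already high in colonocytes (5067 ± 284 to 4719.8 ± 175 CPM), with a difference of 3.89 (SE 0.36, adjusted p = 7.10e-05). Dhrs9 went from 9.68 ± 1.39 to 134 ± 33.0 CPM in colonoids and 13.5 ± 1.53 to 9.79 ± 1.49 CPM in colonocytes (difference 4.07, SE 0.26). Some genes went opposite ways. Vdr, the vitamin D receptor (chromosome 15, 97854425 to 97910630, minus strand), went from 200.4 ± 69.3 to 29.1 ± 6.81 CPM in colonoids and from 13.0 ± 1.51 to 38.0 ± 1.78 CPM in colonocytes (difference -4.20, SE 0.13, adjusted p = 3.57e-07). Adamts15, a secreted metalloprotease (chromosome 9, 30899155 to 30922452, minus strand), went from 14.2 ± 1.01 to 2.93 ± 0.846 CPM in colonoids and from 0.284 ± 0.172 to 6.11 ± 1.99 CPM in colonocytes (difference -4.41, SE 0.30). C3 went from 42.8 ± 35.7 to 1.08 ± 0.376 CPM in colonoids and from 95.2 ± 11.1 to 86.1 ± 1.52 CPM in colonocytes (difference -3.98, SE 0.45). Its change in colonocytes did not pass the threshold (-0.14, adjusted p = 0.832).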

How the data were processed

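RNA-seq libraries of colonoids and colonocytes were used. The deposited columns hold a signal in CPM, scaled by the authors to effective library sizes, per the file headers and the values; the submitters' processing notes name HTSeq 0.5.4p5, TopHat2 2.1.0, edgeR 3.4.2, SAMtools 1.3.1, bcl2fastq 2.16, CASAVA and the build mm10, with no roles given. Neither notes nor headers state a strand setting for the counting. The deposited fold change, p-value and FDR columns were not used. Step sizes of the low values gave whole reads for 100% of values (within 0.05 of a whole read), at 42.2 to 61.7 M reads per colonoid library and 23.7 to 39.5 M per colonocyte library, and libraries present in more than 1 table gave the same reads for 100% of genes.

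Genes whose CPM averaged at least 1 over the 6 libraries were tested on log2(CPM + 1) with limma 3.58.1 (R 4.3.3; empirical Bayes with a trend, line as a block, two-sided, Benjamini-Hochberg adjusted p under 0.05). The differences with against without TNF and colonoids against colonocytes were interaction terms on recovered reads of both tables, scaled together by TMM. Genes had to be listed in all 3 colonoid tables for the first and in both tables for the second. edgeR 4.0.16 on recovered reads called 6935 genes; DESeq2 1.42.0 was another alternative. The others were a pseudocount of 0.25, no filter or a minimum of 5 CPM, no block, total reads as the scaling and leaving out each line. The scripts were tested on simulated data. Python 3.11.15, numpy 2.4.6 and matplotlib 3.10.9 were used for tables and figures.

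The pairing comes from the line names in the labels, which give the same line to both groups. Deviations from the group means correlated at 0.59, 0.45 and 0.28 within lines L42, L43 and L46 and at -0.35 to -0.11 between lines. In a group of 3 the deviations of a gene sum to 0. The negative values between lines therefore follow from the positive ones within lines and are no separate evidence. Named genes were Ccl20, Smad4, the 12 largest rises and the 12 largest falls (called, same sign in 3 lines, mean of at least 5 CPM), up to 4 called members of each of 25 gene lists by size of change, members needed to describe a role, and the 5 largest differences each way between colonoids and colonocytes; the term with against without TNF had no gene past the threshold, and its named genes are list members chosen to describe the lists. A few genes that meet this rule are not reported here. These genes and lists were chosen with earlier results of these data known. Gene positions come from GENCODE vM21 and promoters from RefSeq (GRCm38.p6). Whether the lines are of separate animals is not stated beyond the word biological. With line as a block, the p-values measure how much the change within a line varied over these lines, not how much their levels differed.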

Additional observations from a re-analysis of the deposited data

Results flagged for a closer look

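The change with TGFB1 and BMP2 under TNF differed between colonoids and colonocytes in 6550 genes, by limma's test of the difference itself (colonoid change minus colonocyte change, 3 libraries a group). Within each system, 7762 genes were called in colonoids and 1526 in colonocytes. The 5 named genes with the most positive differences were Angptl2 (4.26), Dhrs9 (4.07), Ephb6 (3.99), Acsbg1 (3.98) and Fn1 (3.89), on the log2(CPM + 1) scale. The 5 with the most negative differences were Adamts15 (-4.41), Ifitm3 (-4.33), Vdr (-4.20), C3 (-3.98) and Vav3 (-3.88). Colonoids and colonocytes were separate experiments with other culture conditions, which cannot be told apart from the system.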

How the results depend on the processing

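The count of genes called for TGFB1 and BMP2 added to TNF (7065) ranged from 3017 to 8955 when 1 line was left out (3017 without L42, 3380 without L43, 8955 without L46), and fewer samples were then fitted. With no replicate block it was 6278, so the pairing by line raised it, and with total reads as the scaling it was 7551 (2212 higher and 5339 lower). Ccl20 was called in all alternatives, at -3.64 to -2.55. The count for the difference with against without TNF was 0 as reported and in every alternative by limma or edgeR, and 32 by DESeq2 (3 higher and 29 lower). For colonoids against colonocytes the counts lay between 5449 and 7428, with 2344 higher and 4200 lower under total reads. Among single genes named, 2 turned sign with a call in the alternative: Ly6a without L46 (-0.24, in a range of -0.24 to 0.20 over the 3 lines left out) and Relb with total reads as the scaling (-0.22); the cause was not tested. With 3 lines and 1 of them responding less, changes of single genes near the threshold depend on which lines are present, and genes at low CPM have understated changes.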
